A study of Bos taurus with 34 samples.

Results

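Ribosomal protein genes were examined in peripheral white blood cells (PWBC) of heifers bled at artificial insemination (AI). The members are the identifiers whose symbol begins with RPL or RPS followed by a digit and that reached a CPM of at least 2 in at least 5 libraries, where CPM is the count scaled to a fixed library total. All 72 identifiers that matched the symbol rule passed this limit, among 10942 genes past it and 27570 in the table. They carry 66 distinct symbols. By known function 67 of them are ribosomal proteins, 29 of the small and 38 of the large subunit, and the other 5 are kinases or other proteins named after a ribosomal protein. The symbols came from the study's result tables alone, which list 2305 of the genes past the limit and many of them for being coexpressed or annotated to translation. Membership and coexpression are therefore not independent in these heifers. RefSeq lists 16 further protein-coding symbols of the same form that have no member, including RPL4, RPL7, RPL9 and RPS9, and they were not analysed here.

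The animals were crossbred Angus-Simmental yearling replacement heifers on 1 farm, all vaccinated alike, synchronised with the 7-Day Co-Synch + CIDR protocol and inseminated with semen of the same sire. Groups were named for the outcome recorded after the blood was drawn. AI-preg heifers were pregnant to AI (n = 6), NB-preg heifers were pregnant to bulls in natural breeding (n = 6), and non-pregnant heifers were not pregnant at the end of the season (n = 5). No heifer received a treatment that the others did not, and each gave 1 PWBC library.

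The ribosome is built from a small and a large subunit, each a core of ribosomal RNA with many small proteins that assemble in fixed proportion. The mRNAs of these proteins are short and abundant, and they share a pyrimidine tract at the start of the transcript through which the mTOR pathway sets their translation. White blood cell types differ in how much of this machinery they hold, and mature neutrophils hold little RNA. No sequences of these genes were at hand, so none is shown, and gene lengths were not used. A CPM is therefore compared between heifers within a gene and not between genes.

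The libraries held 4184999 to 20164587 read pairs on genes in non-pregnant heifers, 15353819 to 67192941 in AI-preg heifers and 6402207 to 56867279 in NB-preg heifers. Libraries of heifers 115 (non-pregnant) and 119 (AI-preg) stood apart with the lowest share of their counts on the members, and results are also given without them. Non-pregnant heifers 94, 107 and 113 stood apart at the other end. The 6 neutrophil markers matched (CXCR2, TREM1, CSF3R, S100A12, ALOX5AP and NCF1) summed to 13180, 11640 and 12450 CPM in these 3 heifers, against 586 CPM in heifer 101, 196.3 CPM in heifer 115 and 79.93 to 4169 CPM in the pregnant heifers. S100A12, a neutrophil calcium-binding protein, made up most of that sum. CXCR2 departed from it, at 85.9 CPM in NB-preg heifer 116 against 65.1, 80.4 and 100 CPM in heifers 94, 107 and 113. The T cell markers LCK and GATA3 summed to 441.7, 328.9 and 381.4 CPM in the same 3 heifers, against 72.41 CPM in heifer 101, 17.7 CPM in heifer 115, 24.66 to 275.6 CPM in AI-preg and 54.27 to 244.3 CPM in NB-preg heifers. No monocyte or red cell marker on the lists was matched to an identifier. In bulk RNA, fewer cells of a type and less RNA per cell cannot be told apart.

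The members together took 0.547% to 12.61% of the counts of a library, a 23.06-fold range over the 17 heifers. The summed share was 12.61% in non-pregnant heifer 94, 12.52% in heifer 113, 10.26% in heifer 107, 2.84% in heifer 101 and 0.547% in heifer 115. In AI-preg heifers the lowest was 0.983%, the median 4.36% and the highest 8.75%. In NB-preg heifers these were 1.46%, 2.75% and 7.65%. The non-pregnant group thus held the 3 highest heifers and the lowest of all, and its range covered that of both pregnant groups. Non-pregnant heifers averaged 7.76% ± 5.67 (SD, n = 5). AI-preg heifers averaged 4.86% ± 3.09 (SD, n = 6), and the average for NB-preg was 4.03% ± 2.61 (SD, n = 6), so that the differences between means were smaller than the SD of the non-pregnant group. Without heifers 115 and 119 the non-pregnant mean was 9.56% and the AI-preg mean 5.63%. On the log2 scale, 2.42% of the sum of squares of the share of the 67 ribosomal proteins lay between groups, and the SD within groups was 1.41. Heifer 99, with the deepest library (67192941 read pairs), had 2.56%, and heifer 101, with the shallowest (4184999 read pairs), had 2.84%. The next deepest, heifers 93, 117 and 111 (56867279, 50999841 and 47079050 read pairs), had 1.46%, 8.75% and 2.53%. Heifers 94, 113 and 107, with the highest shares, had 15534521, 20164587 and 8175887 read pairs. A relation of the share to depth was not tested.

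**Figure D1:**
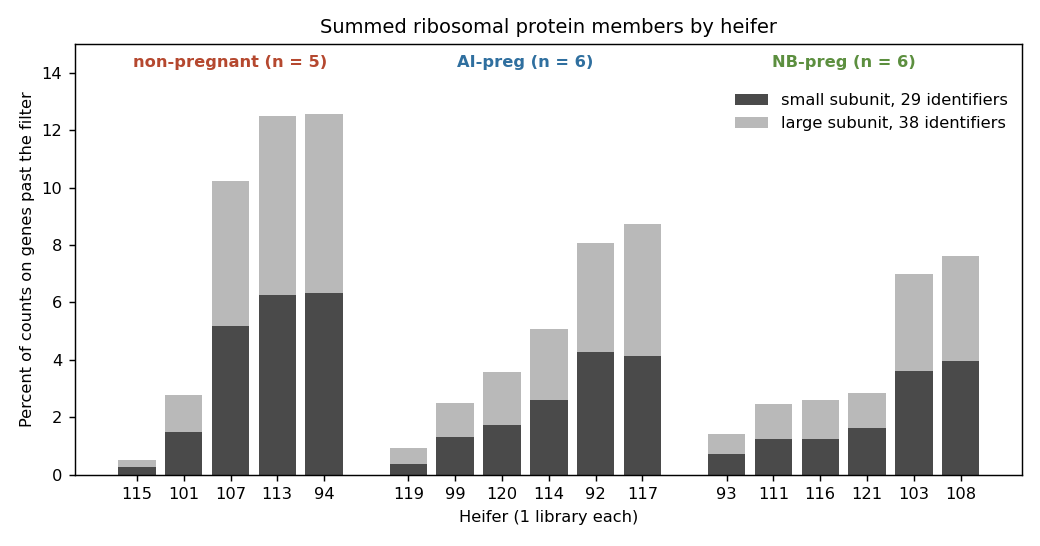
Percent of the counts of each PWBC library on the 67 ribosomal protein identifiers, split into small subunit (dark) and large subunit (light), with 1 bar per heifer in each outcome group. Non-pregnant heifers hold the 3 tallest bars (10.23% to 12.58%) and the shortest (0.519%), and both subunits scale together.

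Both subunits moved together from heifer to heifer. The small subunit proteins took 0.264% to 6.34% of the counts and those of the large subunit 0.256% to 6.24%. The ratio of large to small averaged 0.964 ± 0.0423 (SD, n = 5) for the non-pregnant group. For AI-preg it averaged 1.05 ± 0.198 (SD, n = 6), and for NB-preg 0.940 ± 0.111 (SD, n = 6). Over all heifers it spanned 0.763 (NB-preg heifer 121) to 1.42 (AI-preg heifer 119). A 24.22-fold range in the total thus went with a 1.86-fold range in the ratio.

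The levels of most ribosomal protein members rose and fell together across heifers. Over the 2211 pairs of ribosomal protein identifiers, Pearson's r of log2(CPM + 1) across the 17 heifers had a median of 0.894 (quartiles 0.812 and 0.940, lowest 0.275), against 0.120 (quartiles -0.291 and 0.489) over all pairs of the 10942 genes. The points share libraries and a common total, and the symbols came partly from coexpression, so these r are a description. Within groups the median was 0.974 in the 5 non-pregnant, 0.905 in the 6 AI-preg and 0.837 in the 6 NB-preg heifers. Without heifers 115 and 119 it was 0.843 over the remaining heifers. Pairs within the small subunit (median 0.899) and within the large subunit (median 0.883) had like values.

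The members also varied more between heifers than most genes. The SD of log2(CPM + 1) over the 17 heifers had a median of 1.57 for the ribosomal proteins and 0.944 for all genes, and 61 of 67 ribosomal protein identifiers lay above the latter. This was not particular to the members. The median SD was 1.525 for a list of other ribosomal proteins and translation factors and 1.15 for mitochondrial ribosomal proteins (both lists below). Pairs within these 2 lists had a median r of 0.794 and 0.784. Against the sum of all the other ribosomal proteins, r exceeded 0.9 for 45 of the 67. RPS12 (r = 0.996), RPS24 (0.995), RPL37 (0.993) and RPL35A (0.988) followed the sum most closely. The lowest r were those of 2 RPL39 identifiers (0.603 and 0.644), RPL7A (0.742), RPS15A identifier ENSBTAG00000020733 (0.782), the other RPL39 identifier (0.787) and RPL36 (0.792).

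**Figure D2:**
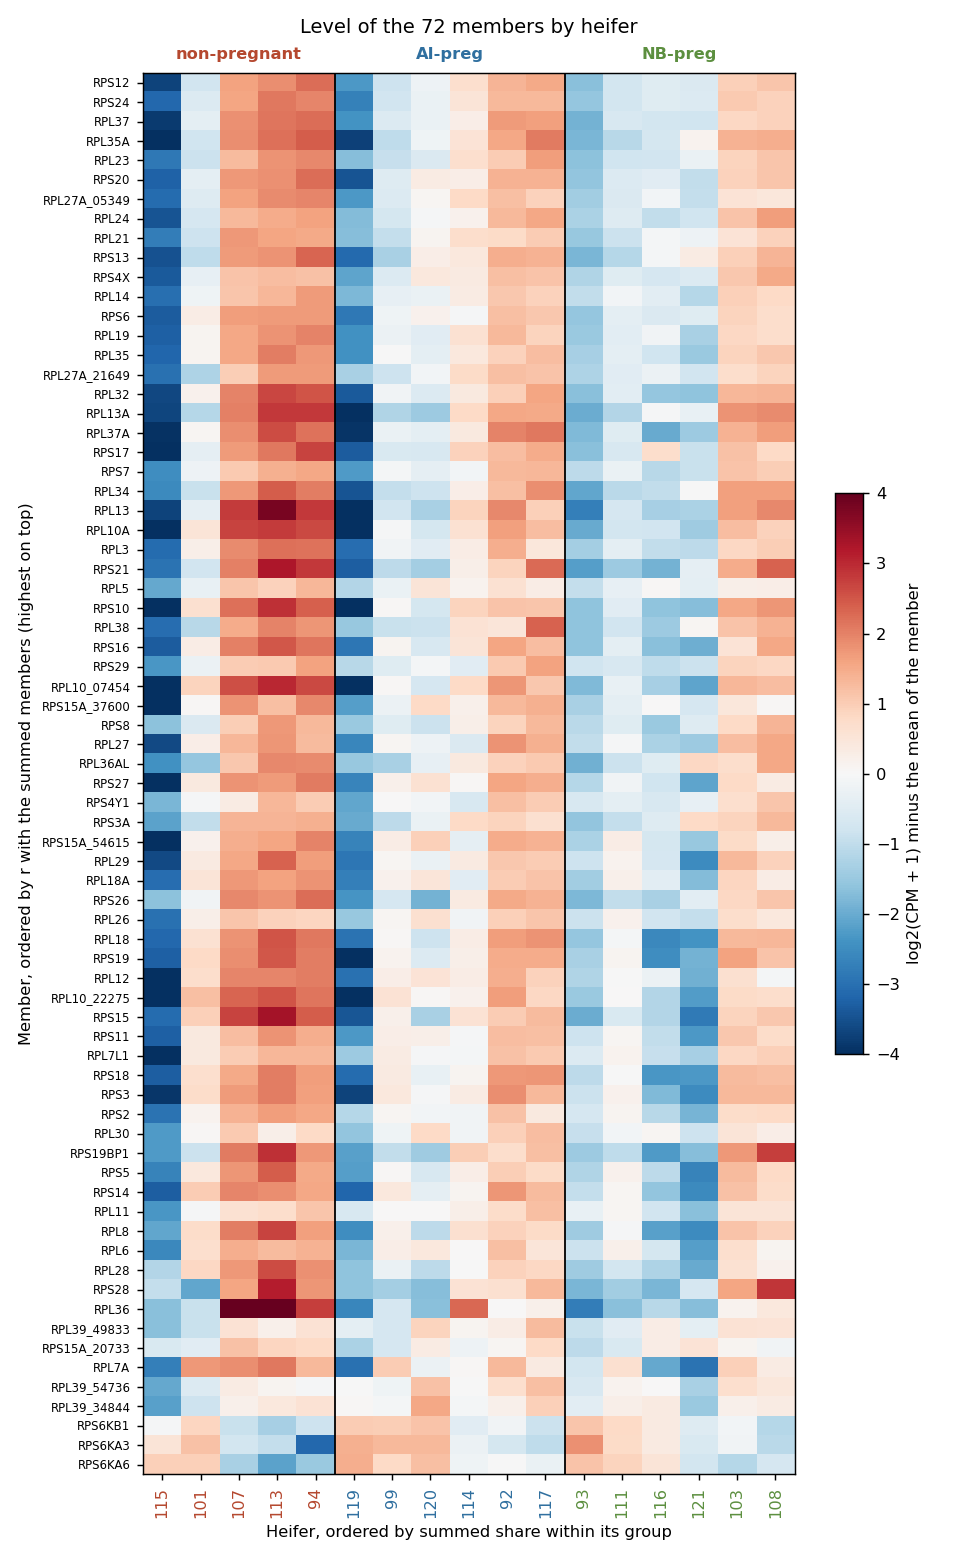
Log2(CPM + 1) of the 72 members (rows) in 17 heifers (columns), each minus the mean of the member over heifers; heifers are ordered by summed share within their group, and a suffix on a name is the end of the identifier where several share a symbol. Whole columns are red or blue together (heifers 94, 107 and 113 red, heifers 115 and 119 blue), except for the 3 kinases in the bottom rows, whose colours run the other way (r = -0.692 to -0.815 with the summed ribosomal proteins).

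The most counted members show the size of this range. RPS3A (ENSBTAG00000009908), a small subunit protein, was at 13090, 12580, 12440, 2485 and 1120 CPM in non-pregnant heifers 94, 113, 107, 101 and 115. It spanned 1215 to 9089 CPM in AI-preg (median 5899) and 1652 to 12080 CPM in NB-preg heifers (median 5977). RPS24 (ENSBTAG00000013264), which is needed for maturation of the small subunit's RNA, was at 14080, 15630, 10910, 2519 and 409.6 CPM in the same non-pregnant heifers. It spanned 564.3 to 9022 CPM in AI-preg (median 4135) and 1242 to 7560 CPM in NB-preg heifers (median 2535). For both genes the groups overlapped, with 3 non-pregnant heifers above every pregnant heifer and heifer 115 below every one of them. RPL23 (389.7 to 10940 CPM), RPL21 (408.8 to 9162 CPM) and RPS12 (146.2 to 8902 CPM) were the next most counted and had the same lowest heifer. The least counted were RPS19BP1, RPL28, RPS28, RPS15A identifier ENSBTAG00000020733 and RPL8, with means of 8.76 to 28.9 CPM.

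The comparison of outcome groups asked whether the members differed with later pregnancy. Differences were tested with edgeR's quasi-likelihood test in 1 fit of the 3 groups, with Benjamini-Hochberg adjustment over all 10942 genes. No member passed an adjusted p of 0.05 in non-pregnant against both pregnant groups (0 of 72, beside 0.0% of all genes), where 11 members had an unadjusted p under 0.05 (15.3%, beside 9.01% of all genes). DESeq2's Wald test and edgeR's likelihood ratio test each called 1 member there, RPL36, among 44 and 18 genes. The count at an unadjusted p under 0.05 depended on single heifers: it was 4 without non-pregnant heifer 94 (5.55% of all genes), 3 without heifer 107 (4.63%), 3 without heifer 113 (3.56%), 40 without heifer 115 (21.5%) and 41 without heifers 115 and 119 (19.3%). With DESeq2 size factors it was 25 (11.2% of all genes). Against AI-preg alone the quasi-likelihood test called 0 members (0.0% of all genes), with 3 at an unadjusted p under 0.05 (5.35% of all genes), and DESeq2 called 0 among 5 genes. Without heifer 115 the 3 became 14 (13.8% of all genes), and without heifer 113 it was 0 (2.20%). Against NB-preg alone it called 0 (0.0% of all genes), with 8 at an unadjusted p under 0.05 (6.14% of all genes), and DESeq2 called RPL36 among 11 genes. Without heifer 115 the 8 became 37 (17.2% of all genes), without heifers 115 and 119 it was 46 (19.5%), and without heifer 113 it was 2 (2.56%). Between NB-preg and AI-preg heifers it called 0 (0.0% of all genes), with 0 members at an unadjusted p under 0.05 (0.146% of all genes), and DESeq2 called 0. In none of these comparisons did any member separate the groups without overlap, beside 0.174% of all genes that were lower in every non-pregnant than in every pregnant heifer and 0.0% that were higher. Against AI-preg alone the shares of all genes without overlap were 0.347% lower and 0.064% higher in non-pregnant heifers, and against NB-preg alone 0.439% lower and 0.0% higher.

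The log2 differences of the members nevertheless lay mostly on 1 side. In non-pregnant minus both pregnant groups the median over the 72 members was 0.96, with 66 above 0, against a median of -0.11 over all genes, of which 44.4% were above 0. All 29 small subunit identifiers were above 0 (median 0.95) and 35 of the 38 of the large subunit were (median 1.02). Against AI-preg the median was 0.78 (64 above 0), beside -0.15 for all genes (42.2% above 0). Against NB-preg it was 1.14 (66 above 0), beside -0.05 for all genes (47.3% above 0). These comparisons share the 5 non-pregnant heifers, so they are not separate observations. NB-preg minus AI-preg gave a median of -0.37, with 8 above 0, beside -0.09 for all genes, of which 40.7% were above 0. As most members rise and fall together across heifers, the members are not independent observations of a direction. The median of the comparison with both pregnant groups was 0.70 without non-pregnant heifer 113, 1.27 without heifer 115 and 1.15 without heifers 115 and 119. Neutrophil and T cell markers were highest in the same 3 non-pregnant heifers (given above), and their part in these differences was not tested.

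**Figure D3:**
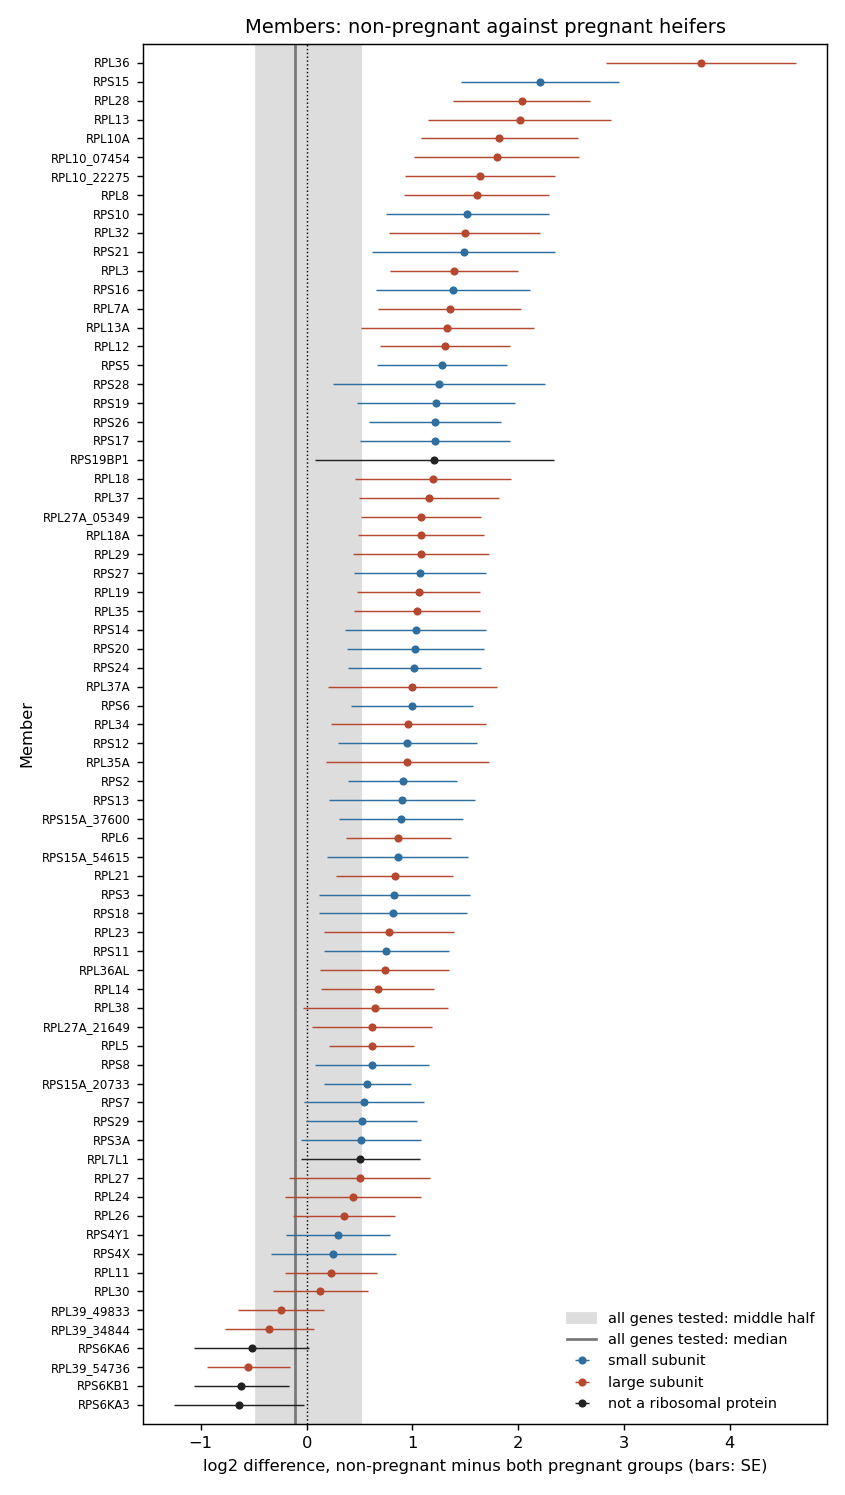
Log2 difference of each member between 5 non-pregnant and 12 pregnant heifers (points, with SE as bars), coloured by subunit, with the median (line) and middle 50% (band) of all 10942 genes. Of 72 points 66 lie above 0, RPL36 lies farthest at 3.73, and the 3 RPL39 identifiers and 3 kinases lie below 0.

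RPL36 (ENSBTAG00000001794), a large subunit protein, had the smallest p of the members. It was at 279.7, 153.5 and 64.0 CPM in non-pregnant heifers 113, 107 and 94, and at 4.1 and 2.0 CPM in heifers 101 and 115. AI-preg heifers spanned 0.563 to 45.4 CPM (median 6.76), the highest being heifer 114, and NB-preg heifers 0.405 to 11.8 CPM (median 2.72). The values of 3 non-pregnant heifers thus lay above every pregnant heifer, while the other 2 lay within the pregnant range. The log2 difference to both pregnant groups was 3.73 ± 0.899 (SE), with an unadjusted p of 0.000504 and an adjusted p of 0.506 in edgeR's quasi-likelihood test. Its difference was 4.38 ± 1.2 to NB-preg and 3.08 ± 1.13 to AI-preg (log2 ± SE). Without non-pregnant heifer 113 the difference was 2.88 to both pregnant groups and 2.23 to AI-preg, and without AI-preg heifer 114 it was 4.32 and 4.27. The count behind the lowest libraries was small, with 14 to 29 read pairs on RPL36 in heifers 101, 115, 119, 93, 116 and 121 and 5619 in heifer 113.

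The next members by p behaved alike, at smaller size. RPL28, a large subunit protein, was at 38.1, 20.6, 22.1, 10.6 and 1.8 CPM in non-pregnant heifers 113, 107, 94, 101 and 115. It spanned 1.13 to 11.2 CPM in AI-preg (median 4.89) and 0.600 to 8.82 CPM in NB-preg heifers (median 2.30). Heifers 94, 107 and 113 were again above every pregnant heifer, and heifer 101 was close to the highest of these. The log2 difference was 2.03 ± 0.65 (SE; quasi-likelihood test, adjusted p = 0.506).

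RPS15, a small subunit protein needed for export of that subunit from the nucleus, was at 296.2, 190.6, 156, 56.1 and 2.5 CPM in the same order of heifers. The pregnant groups spanned 1.77 to 70.5 CPM (AI-preg, median 37.9) and 3.13 to 61.1 CPM (NB-preg, median 15.1). The log2 difference was 2.20 ± 0.747 (SE; quasi-likelihood test, adjusted p = 0.506). RPL10A, RPL8 and RPL13 had log2 differences of 1.82, 1.61 and 2.01, with adjusted p of 0.532, 0.532 and 0.532. For all 6 genes heifers 94, 107 and 113 lay above every pregnant heifer, and heifers 101 and 115 lay within or below the pregnant range.

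**Figure D4:**
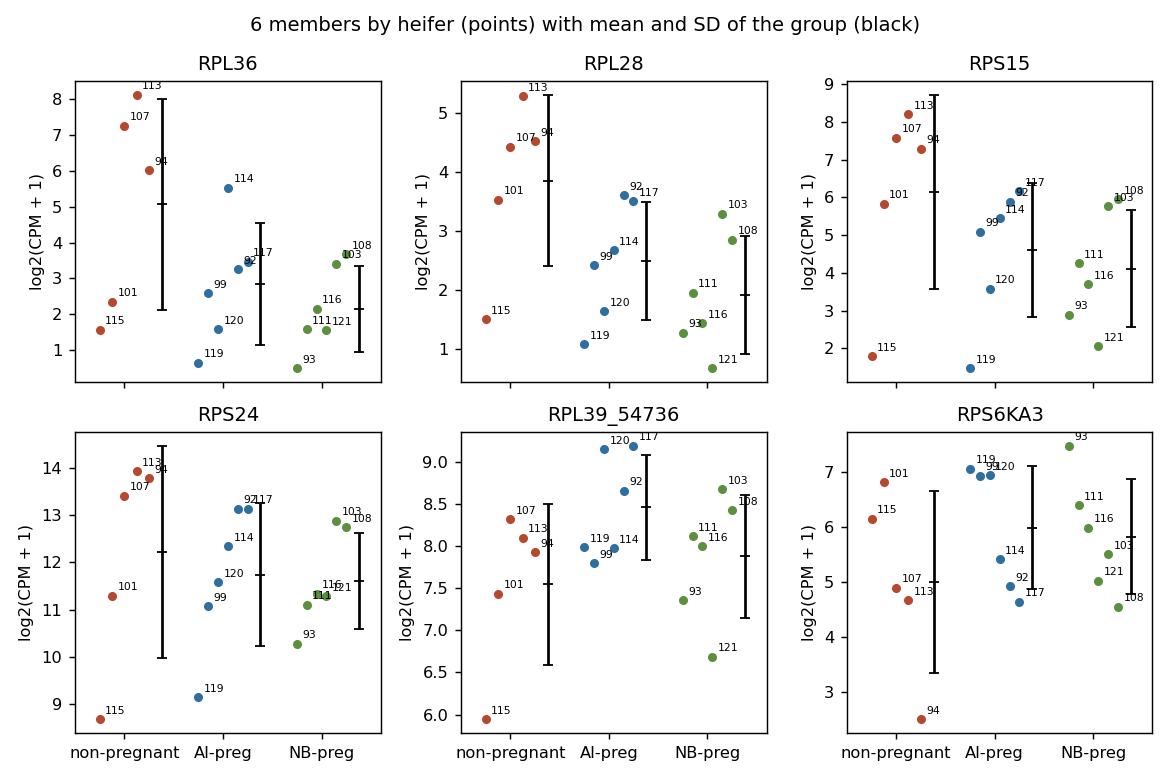
Log2(CPM + 1) of 6 members in each heifer (points, numbered, ordered by summed share within the group) with the mean and SD of each group in black. RPL36, RPL28, RPS15 and RPS24 are highest in non-pregnant heifers 94, 107 and 113, whereas the RPL39 identifier ENSBTAG00000054736 is highest in AI-preg heifer 117 and the kinase RPS6KA3 in NB-preg heifer 93.

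The other members with well-known roles given in this paragraph had log2 differences of 0.23 to 1.39 to both pregnant groups. None of them passed the test. RPS6, the substrate of the S6 kinases, had a log2 difference of 0.99 ± 0.577 (SE). RPL5 and RPL11, which bind MDM2 when ribosome assembly is disturbed, had 0.62 ± 0.403 and 0.23 ± 0.434. RPS19 and RPS26, which are mutated in an inherited anaemia of people, had 1.22 ± 0.748 and 1.22 ± 0.626. RPL3, which lies at the catalytic centre of the large subunit, had 1.39 ± 0.608, and RPS28 had 1.25 ± 0.998. RPS4X had 0.25 ± 0.591. An identifier that the tables name RPS4Y1 (ENSBTAG00000025617) was counted in all 17 heifers (17.6 to 193.8 CPM) although females have no Y chromosome, and had 0.30 ± 0.492.

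The 5 members that are no ribosomal proteins split in direction. The kinases RPS6KA3, RPS6KA6 and RPS6KB1 ran against the ribosomal proteins across heifers, with r of -0.752, -0.815 and -0.692 to the sum of these proteins. RPS6KA3 was at 4.6, 24.4 and 28.7 CPM in heifers 94, 113 and 107 and at 110.8 and 69.8 CPM in heifers 101 and 115. It spanned 23.8 to 132.1 CPM in AI-preg (median 81.2) and 22.3 to 176.4 CPM in NB-preg heifers (median 53.2), and the groups overlapped. The log2 differences of the 3 kinases were -0.64 ± 0.616, -0.52 ± 0.544 and -0.62 ± 0.449 (SE), and none passed the test. RPL7L1, a factor of ribosome assembly, and RPS19BP1, which binds RPS19, followed the ribosomal proteins (r = 0.889 and 0.881).

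Against the common trend, the make-up of the summed ribosomal proteins was examined as each identifier's share of that sum. Log2 shares were taken from CPM + 1 over the sum, and percents without the added 1. For RPL36 (lowest 0.405 CPM) and RPS28 (lowest 0.240 CPM) the added 1 exceeded some values, so their spreads and differences depend on it. RPS24 kept the most even share, at 6.07% to 12.5% of the sum (mean 9.56%), with an SD over heifers of 0.24 on the log2 scale, followed by RPL23 (0.27), RPL21 (0.28), RPL27A identifier ENSBTAG00000005349 (0.29) and RPS12 (0.31). The share of RPL36 varied most (SD 1.45), followed by RPL13 (1.16), RPL10 identifier ENSBTAG00000007454 (1.15), RPL7A (1.15) and RPS28 (1.07). RPL36 made up 0.224%, 0.150% and 0.0509% of the sum in non-pregnant heifers 113, 107 and 94, 0.0379% in heifer 115 and 0.0146% in heifer 101. Its mean share was 0.0955% ± 0.0885 (SD, n = 5) for the non-pregnant group, against 0.0238% ± 0.0326 for AI-preg and 0.0100% ± 0.00487 for NB-preg (SD, n = 6 each). The AI-preg mean rests on heifer 114, at 0.0896% and thus above non-pregnant heifer 94, and was 0.0107% without it. The log2 share of RPL36 was 2.17 higher in non-pregnant than in pregnant heifers (two-sided exact permutation test over 6188 arrangements of 5 and 12 heifers, p = 0.00356). With each heifer left out the difference ran from 1.75 (without heifer 113) to 2.66 (without heifer 101). RPL36 was among 10 identifiers tested and was chosen for its spread, which a difference between groups widens, so this p is not independent of the choice. For RPL13 the difference was 1.11 (exact permutation p = 0.0719), for the RPL10 identifier 0.94 (exact permutation p = 0.127), for RPL7A 0.81 (exact permutation p = 0.199) and for RPS28 0.57 (exact permutation p = 0.329). The 5 members with the most even shares differed by -0.06 to 0.14, with exact permutation p of 0.283 to 0.749. They were chosen for their small spread over the same heifers, which leaves little room for a difference between groups.

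**Figure D5:**
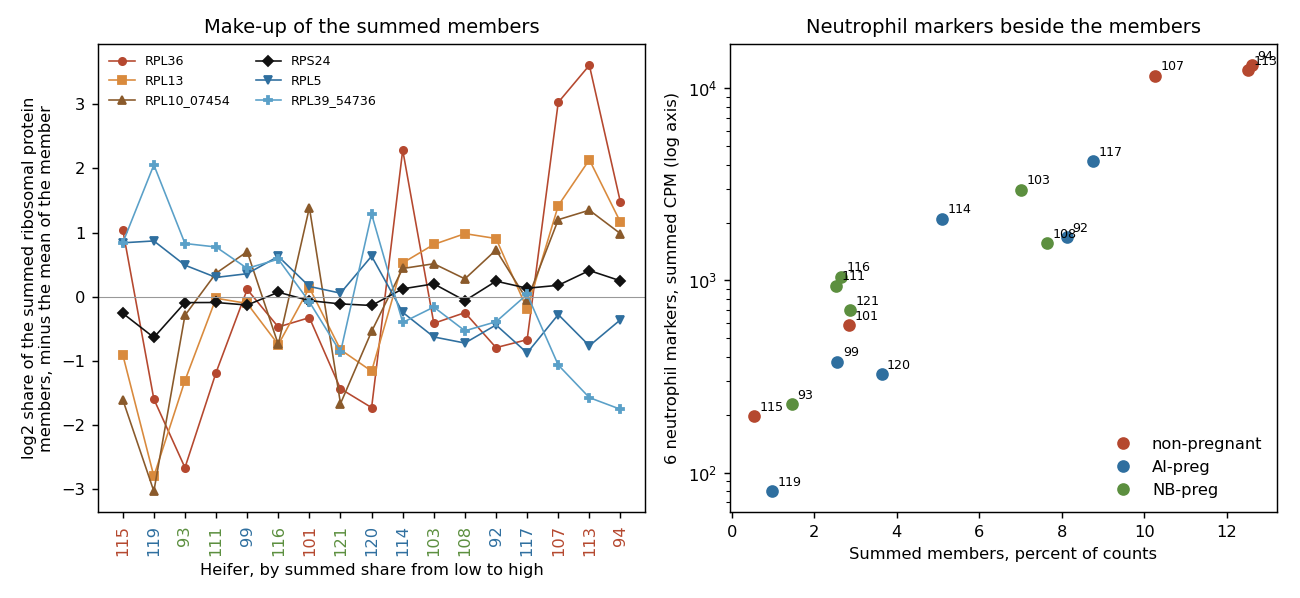
Left, log2 share of 6 members within the summed ribosomal proteins, each minus its mean, with heifers from the lowest to the highest summed share. RPS24 stays near 0 while RPL36, RPL13 and RPL10 tend up and RPL5 and RPL39 down. Right, summed CPM of 6 neutrophil markers (log axis) against the percent of counts on the members, with heifers 94, 107 and 113 at 11640 CPM and above.

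RPL39, a protein of the large subunit's exit tunnel, departed from the trend in the other direction. Its identifier ENSBTAG00000049833 was at 1800, 2341, 2361, 848.3 and 492.5 CPM in non-pregnant heifers 113, 107, 94, 101 and 115. These values lay within or below the 994.1 to 3777 CPM of AI-preg heifers (median 1817). NB-preg heifers spanned 858.3 to 2357 CPM (median 1569), with heifer 94 just above that range and heifers 101 and 115 below it. As a share of the sum this identifier went from 1.44% in heifer 113 to 9.48% in heifer 115 and 13.1% in AI-preg heifer 119. The 3 RPL39 identifiers had log2 differences of -0.24 ± 0.404, -0.35 ± 0.419 and -0.55 ± 0.392 (SE) between non-pregnant and both pregnant groups, none past the test. They were the only ribosomal protein identifiers of the 67 below 0 in that comparison.

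Several identifiers shared a symbol in 4 cases, over 10 identifiers in all. Reads with several alignments were removed by the authors, so near-identical copies are counted only from the reads that differ, and these levels are uncertain. A single identifier held most of the counts of each symbol, with 78.9% ± 4.98 for RPL10, 88.7% ± 2.92 for RPL27A, 80.7% ± 4.16 for RPL39 and 88.2% ± 7.72 for RPS15A (mean and SD over 17 heifers). In heifer 115 the RPS15A identifier ENSBTAG00000020733 made up 38.8% of its symbol, against a mean of 5.91% ± 8.7 (SD, n = 17), since it was at 14.3 CPM there while the main identifier was at 21.6 CPM.

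Some genes outside the members rose and fell with the ribosomal proteins across heifers. Among 10870 genes that are no members, 558 had r over 0.9 with the summed ribosomal proteins and 119 had r under -0.9. The closest were ENSBTAG00000016391 (r = 0.990), for which no symbol was found, NPAS2 (0.985), PFDN5 (0.984), a subunit of the chaperone prefoldin, COMMD7 (0.982) and ANP32A (0.980). Of 30 further ribosomal proteins and translation factors on a fixed list, 22 were found, and 7 of these had r over 0.9. In non-pregnant minus both pregnant groups 0 of the 22 passed the test (0.0% of all genes), 4 had an unadjusted p under 0.05 (9.01% of all genes), and the median log2 difference was 0.94. Among them were FAU (log2 difference 1.99), which encodes a ribosomal protein fused to a ubiquitin-like part, and the elongation factor subunits EEF1G (1.90) and EEF1D (1.82). The initiation factor subunits EIF3J (-0.75), EIF3M (-0.35) and EIF3H (-0.13) lay below 0, and EIF3J ran against the summed ribosomal proteins (r = -0.867). For 21 mitochondrial ribosomal proteins the median was 0.39, with 15 above 0, and 11 of them had r over 0.9 with the summed ribosomal proteins. MRPS10, MRPS30 and MRPS18C ran against that sum (r = -0.741, -0.573 and -0.400). Of the 21, 0 passed the test and 1 had an unadjusted p under 0.05 (4.76%, beside 9.01% of all genes). It was MRPS30, which was lower in non-pregnant heifers (log2 difference -1.14, quasi-likelihood test, unadjusted p = 0.0144).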

How the data were processed

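RNA of PWBC and small RNA of plasma from 17 heifers had been sequenced. The authors deposited counts per gene, read pairs by strand for PWBC, not normalized. Per the labels, reads were aligned with HISAT2 2.1.0 to ARS-UCD1.2 and counted with featureCounts 1.6.0. Before counting, the authors removed reads with several alignments or many mismatches and left out duplicates, which lowers the counts of short abundant transcripts. The annotation version differs between the study's text and code.

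Members, lists and tests were chosen with earlier results of these data known. CPM used totals over genes with 2 CPM in 5 libraries, and log2(CPM + 1) was taken for correlations. Differences were tested with edgeR 4.0.16 (R 4.3.3, glmQLFit robust, quasi-likelihood test, 1 fit of 3 groups) and Benjamini-Hochberg adjustment. SE was derived from the test statistic. Each heifer is 1 replicate, named by its number. DESeq2 1.42.0 was an alternative, beside other scalings, filters and heifers left out. The test was checked on simulated data: of 200 genes among 10942 changed by 3 on the log2 scale between non-pregnant and pregnant heifers it recovered 141, with 2 false calls. Those genes were drawn independently and changed by more than most members did. The check therefore does not cover changes of the members' size or genes that move together. Shares were compared by exact permutation in Python 3.11.15 with numpy 2.4.6.

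Named members were those with the 6 smallest p, the 5 highest and 5 lowest means, the 5 most and least even shares, 17 symbols with known roles, shared symbols and the 5 members that are no ribosomal proteins. The 5 genes most like the members were named too, as were RPL37, RPL35A, FAU, EEF1G, EEF1D, EIF3J, EIF3M, EIF3H, MRPS10, MRPS30 and MRPS18C, chosen after their values were seen. Depth is given as read pairs on genes. Labels give no sequencing batch. Gene lengths, promoters and protein sequences were not analysed here, and 1 further marker list and 1 gene of the translation list are not reported here. NK cell, eosinophil and platelet markers are given in the closing section.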

Additional observations from a re-analysis of the deposited data

Results flagged for a closer look

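Within their outcome group, single heifers lay far from the rest for several members, by the gap to the nearest heifer relative to the range of the group. Of 105 groups of values examined 11 were marked in this way. Chance marks about 1 in 20 of separate groups, but most members rise and fall together across heifers. The 11 are thus not separate observations and cannot be set against that rate. On the scale of log2(CPM + 1), non-pregnant heifer 115 was the lowest for RPL10 identifier ENSBTAG00000007454 (3.19, others 8.45 to 10.56), RPL10 identifier ENSBTAG00000022275 (1.63, others 6.89 to 8.2), RPL7A (1.94, others 5.96 to 6.78), RPL7L1 (2.50, others 7.06 to 8.01) and RPS6 (5.86, others 9.50 to 10.9). AI-preg heifer 119 was the lowest for the same RPL10 identifiers (2.68 and 1.59), RPL7A (1.67), RPS19 (1.72) and RPS6 (6.31). Both heifers had the lowest summed share of their group. The ratio of large to small subunit was lowest at 0.890 in non-pregnant heifer 101, with the others at 0.969 to 0.998.

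Plasma small RNA, which the comparisons above do not use, also held reads on the members. In all 17 plasma libraries 6556 reads fell on them, 137 to 470 per non-pregnant heifer (median 331), 157 to 768 per AI-preg heifer (median 395.5) and 138 to 1354 per NB-preg heifer (median 256), or at most 0.0181% of the plasma reads on genes. RPL14 had 559, RPS10 478 and RPS7 415 of these reads, and 26 of the 72 members exceeded 1 CPM in at least 5 plasma libraries.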

How the results depend on the processing

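The count of members called stayed at 0 in edgeR's quasi-likelihood test under TMM factors, DESeq2 size factors, either other filter, the fit of only the groups compared, the fit without heifers 115 and 119 (chosen after seeing the data) and each heifer left out (0 to 0). It became 1 (RPL36) with DESeq2's Wald test against NB-preg (log2 difference 4.54, adjusted p = 0.0136) and against both pregnant groups (3.89, adjusted p = 0.0106), and with edgeR's likelihood ratio test against both (3.73, adjusted p = 0.0218). Over all alternatives of the latter comparison its adjusted p ran from 0.0106 to 0.996. No direction reversed among the named members followed. DESeq2 size factors moved the median of all genes against both pregnant groups from -0.11 to 0.14, and the members' median from 0.96 to 1.17, which relative to all genes is 1.06 and 1.04. With each heifer left out, the members' median ran from 0.70 to 1.27 against both pregnant groups, 0.51 to 1.09 against AI-preg, 0.86 to 1.45 against NB-preg and -0.63 to -0.14 for NB-preg minus AI-preg. The mean summed share ran from 6.54% to 9.56% in non-pregnant, 4.08% to 5.63% in AI-preg and 3.30% to 4.54% in NB-preg heifers, and the median pair r from 0.874 to 0.911. No paired analysis was possible because the groups compared share no heifer numbers. RPL36, RPL28 and RPS28 rest on 1 to 44 read pairs in heifers 101, 115 and 119.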

Other observations

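Further cell type markers were matched for few genes. NK cell markers NKG7 and GZMB summed to 2.83 to 74.0 CPM in non-pregnant, 8.01 to 30.4 CPM in AI-preg and 14.7 to 42.1 CPM in NB-preg heifers. The eosinophil receptor gene IL5RA was at 13.0 to 36.8 CPM in non-pregnant, 5.04 to 17.4 CPM in AI-preg and 3.73 to 13.96 CPM in NB-preg heifers. The platelet genes ITGA2B and TUBB1 summed to 41.5 to 1530 CPM, 90.4 to 1551 CPM and 8.13 to 1889 CPM in the same order of groups. The highest sums were nearly all TUBB1, and the 2 genes did not run together. Non-pregnant heifers 94 and 107 had 41.4 and 49.4 CPM of ITGA2B but 0.0646 and 0.491 CPM of TUBB1. In heifer 115 they were at 0.123 and 1530 CPM. The part of these markers in the levels of the members was not tested.

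The number of genes at 2 CPM or more was lowest, at 7565, in non-pregnant heifer 115, and the median over the 17 heifers was 9832. The 100 most counted genes took 18.0% to 31.4% of the counts of a library.

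The identifier that the tables name NPAS2 (ENSBTAG00000019697), among the genes closest to the members, was counted at 65.5 to 3614 CPM in non-pregnant, 56.4 to 2029 CPM in AI-preg and 157.9 to 1378 CPM in NB-preg heifers. In RefSeq the gene next to NPAS2 is RPL31, a ribosomal protein gene that has no member here. Whether reads of RPL31 were counted on the identifier was not tested.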
